A study of Mus musculus with 66 samples.

Results

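The dark-hour saline comparison set 9 libraries of iMSN-D2RKO mice against 9 libraries of WT mice, 18 of the 66 distinct libraries of the series, with 3 libraries per genotype at each of ZT15, ZT19 and ZT23. Zeitgeber time (ZT) counts hours from lights on, and these are the hours of darkness, when mice are active. Members were chosen by their labels alone (genotype, saline, hour of collection), and a gene was tested if it reached 1 FPKM in at least 1 of the 18 libraries, which 13994 of 24138 entries did. The question was which genes of the nucleus accumbens (NAcc) differ in level between the genotypes in the active phase without drug.

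Each library was made from RNA of NAcc punches of male mice on a C57BL/6J background (C57BL/6 in the labels), 3 to 5 months old, that received a saline injection at ZT3. The iMSN-D2RKO mice carry the D2R flox/flox alleles together with D1R-Cre, a Cre recombinase driven by the promoter of the D1 receptor gene, and the WT mice were their controls. Whether the WT mice carry floxed alleles was not given in the sources used here. D1R-Cre marks the direct-pathway neurons of the adult striatum and reaches the indirect-pathway neurons through precursors that express both receptors, so the model rests on embryonic recombination. D2R made by interneurons and by the terminals of dopamine neurons is outside this design. The punches hold all cell types, so that fewer cells of a type and less RNA per cell cannot be told apart. The labels do not say more of the replicates than that they are separate samples, and the p-values measure the spread between these samples.

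Medium spiny neurons (MSNs) are the output neurons of the striatum and fall into 2 classes. Direct-pathway neurons carry the D1 receptor, which raises cAMP, and release substance P and dynorphin. Indirect-pathway neurons (iMSNs) carry the D2 receptor (D2R), which lowers cAMP, together with the adenosine A2a receptor, which raises it, and release enkephalin. Dopamine acting at D2R restrains iMSNs, and enkephalin mRNA in the striatum is known to rise when D2R signaling is blocked or dopamine is lost.

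The values are FPKM, fragments scaled by transcript length and library size as computed by the authors, so levels of different genes can be compared per length. Total FPKM per library had a mean of 400027 ± 12872 in WT and 407637 ± 24277 in iMSN-D2RKO (SD, n = 9 each). The number of genes at 1 FPKM or more ran from 12696 to 12994 in WT and from 12704 to 12857 in iMSN-D2RKO. Neither measure differed between the genotypes beyond the spread of libraries (exact permutation test within hours, two-sided, p = 0.439 and 0.298). The highest total, 465297 FPKM, was that of iMSN-D2RKO ZT23 replicate 2, against at most 419703 in the others. That library also had the highest of the Penk and Cartpt values given below. Read numbers are unknown from FPKM, so the precision of each value was taken from the replicates. Genes were tested with limma on log2(FPKM + 1) with the hour as a factor, and a gene was called at a Benjamini-Hochberg adjusted p under 0.05. On this scale a difference of 1 is 2-fold for an abundant gene, and the change of genes near or under 1 FPKM is understated.

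A strong axis of variation that the groups do not explain ran through the libraries. The leading component of the deviations of libraries from their group means held 43.6% of the variance of these deviations over the 66 libraries, and each library was given a score along it. Of the 66 libraries, 13 stood apart with scores of 44.3 or more, whereas no other exceeded 15.1. In the dark saline set, 7 libraries stood apart: WT ZT19 replicates 1 and 2, WT ZT23 replicate 1, and iMSN-D2RKO ZT15 replicate 2, ZT19 replicates 1 and 3 and ZT23 replicate 3. With 3 of 9 WT and 4 of 9 iMSN-D2RKO libraries set apart, the mean score did not differ between the genotypes beyond the spread (8.80 ± 29.7 against 15.3 ± 36.0, SD, n = 9 each, exact permutation p = 0.701). All 3 WT libraries of ZT15 lay among the others.

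**Figure D1:**
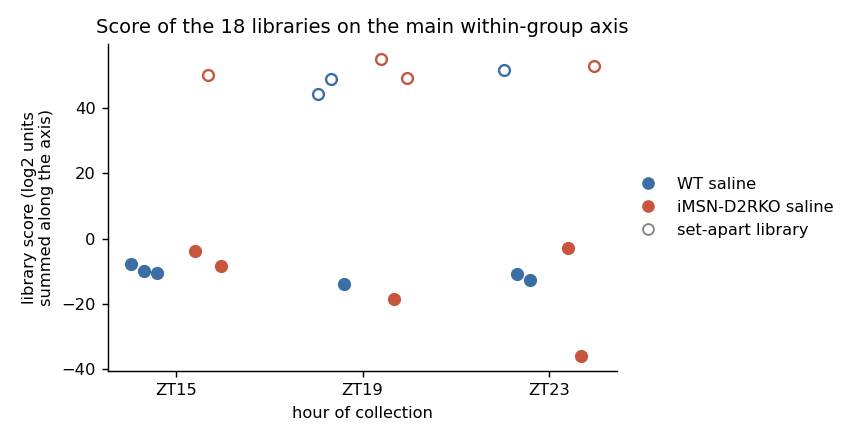
Score of each of the 18 dark saline libraries (y axis, log2 units summed along the first within-group axis) by hour of collection (x axis), WT in blue and iMSN-D2RKO in red, with hollow points for the set-apart libraries. The 7 set-apart libraries have scores from 44.3 to 55.0, and the other 11 lie between -35.9 and -2.90.

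The targeted gene was examined first. Drd2, which encodes D2R (chr9:49340627-49408177 of GRCm38, + strand), did not differ between the labelled genotypes over all 18 libraries. In WT its FPKM was 129, 118 and 124 at ZT15, 279, 227 and 143 at ZT19, and 193, 118 and 115 at ZT23. In iMSN-D2RKO it was 78.0, 224 and 92.9 at ZT15, 350.4, 90.0 and 171 at ZT19, and 112, 109.9 and 199 at ZT23. The groups overlapped widely, and in both the high values were those of the set-apart libraries (193 to 279 in 3 WT, 171 to 350.4 in 4 iMSN-D2RKO). The means were 161 ± 59.1 and 159 ± 88.7 (SD, n = 9 each), and the log2 difference was -0.12 with a 95% interval from -0.65 to 0.41 (limma, adjusted p = 0.9996). Among the 11 other libraries, iMSN-D2RKO ran from 78.0 to 112 and WT from 115 to 143, without overlap, and the difference was -0.39 (limma, unadjusted p = 0.00281, adjusted p = 0.197). In that subset, chosen from these same data, 1818 of 13587 genes had an unadjusted p under 0.05 (limma). How many genes did not overlap in it was not counted. FPKM of the whole gene does not test the loss of single exons, so the deletion itself was not examined, and directions below are those between libraries labelled iMSN-D2RKO and WT.

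Other receptor and marker genes placed the punches in the striatum in both genotypes. Drd1, the D1 receptor (chr13:54051183-54055705, - strand), had a mean of 90.6 ± 11.5 FPKM in WT (73.0 to 109, median 89.3) and 107 ± 18.8 in iMSN-D2RKO (83.2 to 145, median 107). The 2 ranges overlapped, with a log2 difference of 0.23 (limma, unadjusted p = 0.0454, adjusted p = 0.9996). Drd3, the D3 receptor of the ventral striatum, stood at 2.48 ± 1.26 and 2.27 ± 0.843 (log2 difference -0.06), and its sign turned in some fits. Adora2a, the adenosine A2a receptor of iMSNs, stood at 163 ± 51.4 and 130.3 ± 48.7 with widely overlapping ranges (log2 difference -0.35, unadjusted p = 0.184), and it was 0.91 lower on the log2 scale in the set-apart libraries. Ppp1r1b, which encodes the dopamine-regulated phosphoprotein DARPP-32, was abundant at 1114 ± 254 and 1054 ± 336 FPKM. Gpr6, an orphan receptor of iMSNs, had 87.9 ± 9.35 and 88.2 ± 11.3 FPKM, a log2 difference of 0.00.

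At a threshold of 0.05, 3 of 13994 genes (0.0214%) were called. Snx31 and Fst were higher in iMSN-D2RKO (2 genes, 0.0143%), and the noncoding RNA C920006O11Rik was lower (1 gene, 0.00715%). An unadjusted p under 0.05 was reached by 630 genes (4.5%), of which 332 were higher (2.37%) and 298 lower (2.13%) in iMSN-D2RKO. The median log2 difference over all genes tested was 0.01.

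Fst encodes follistatin, a secreted protein that binds activins and keeps them from their receptors (chr13:114452290-114458951, - strand). Its FPKM in WT was 2.28, 1.90 and 1.55 at ZT15, 2.36, 2.20 and 1.98 at ZT19, and 1.84, 1.85 and 1.61 at ZT23. In iMSN-D2RKO it was 3.23, 4.93 and 2.90 at ZT15, 5.39, 3.42 and 4.00 at ZT19, and 3.95, 2.95 and 3.54 at ZT23. Every iMSN-D2RKO library was above every WT library. The mean rose from 1.95 ± 0.281 to 3.81 ± 0.861 (SD, n = 9 each), 1.95-fold, with a log2 difference of 0.69 ± 0.0924 (SE, limma, adjusted p = 0.00467). The difference was 0.67, 0.72 and 0.69 at ZT15, ZT19 and ZT23. Without the 7 set-apart libraries it was 0.58 and no longer called (adjusted p = 0.0763).

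Snx31 encodes a sorting nexin, a member of a family that steers cargo between endosomes and the cell surface (chr15:36504062-36555573, - strand). It was nearly silent in WT, with 0.0977, 0.0344 and 0.0968 FPKM at ZT15, 0.288, 0.281 and 0.0766 at ZT19, and 0.0824, 0.212 and 0.0694 at ZT23. In iMSN-D2RKO it stood at 0.818, 1.08 and 0.750 at ZT15, 0.983, 0.814 and 0.711 at ZT19, and 0.634, 1.05 and 0.659 at ZT23. Every iMSN-D2RKO library was above every WT library, at levels that stayed near or under 1 FPKM. It entered the test through the 2 iMSN-D2RKO libraries above 1 FPKM, and was also called with no filter on low values (19485 genes, limma, adjusted p = 4.75e-05). The mean rose from 0.138 ± 0.0961 to 0.834 ± 0.168 (SD, n = 9 each), 6.07-fold, and the log2 difference was 0.69 ± 0.0701 (SE, limma, adjusted p = 0.00033). It was called without the set-apart libraries as well (0.72, adjusted p = 0.0247), and fell outside the test where a mean of 1 FPKM was required.

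C920006O11Rik is a long intergenic noncoding RNA (chr9:78175914-78178879, + strand) on the chromosome of Drd2, 28767737 bases from it. In WT it had 1.81, 1.65 and 1.55 FPKM at ZT15, 2.09, 2.37 and 1.79 at ZT19, and 1.46, 2.27 and 2.54 at ZT23. In iMSN-D2RKO it had 0.879, 0.958 and 0.740 at ZT15, 0.727, 0.903 and 1.05 at ZT19, and 0.738, 0.972 and 1.07 at ZT23. No iMSN-D2RKO library reached the lowest WT library. The mean fell from 1.95 ± 0.385 to 0.893 ± 0.133 (SD, n = 9 each), WT being 2.18-fold higher, with a log2 difference of -0.63 ± 0.0775 (SE, limma, adjusted p = 0.00225). Without the set-apart libraries it was -0.68 (adjusted p = 0.0247).

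Each of these 3 genes was called in all 18 fits that left out 1 library, with adjusted p-values (limma) from 0.00455 to 0.0185 for Fst, from 0.000539 to 0.00170 for Snx31 and from 0.000746 to 0.00941 for C920006O11Rik. Leaving out a whole hour cost more calls, and Fst was lost whichever hour was left out. Without ZT15 none of the 3 was called (limma, adjusted p = 0.136 for Fst and Snx31 and 0.165 for C920006O11Rik), at differences of 0.70, 0.63 and -0.69. Without ZT19 Snx31 alone was called (0.73, adjusted p = 0.0453, against 0.421 for the others). Without ZT23 Snx31 (0.70, adjusted p = 0.0261) and C920006O11Rik (-0.61, adjusted p = 0.042) were called and Fst was not (0.69, adjusted p = 0.29).

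**Figure D2:**
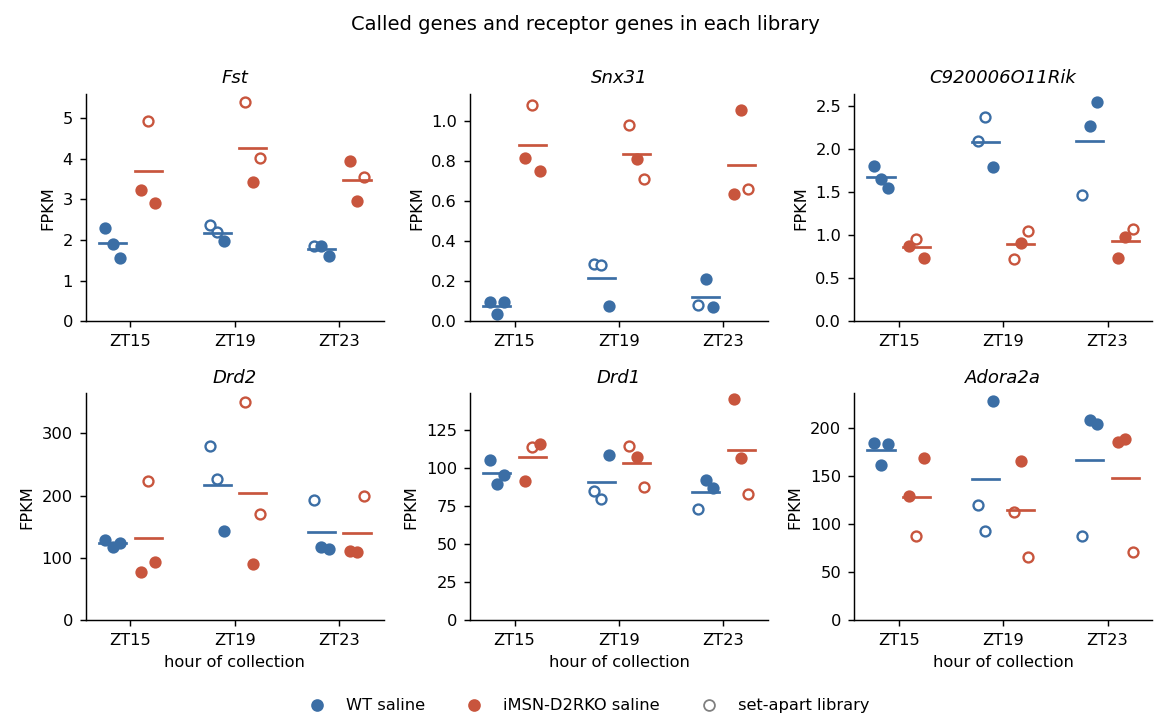
FPKM (y axis) of Fst, Snx31, C920006O11Rik, Drd2, Drd1 and Adora2a in each library by hour of collection (x axis), WT in blue, iMSN-D2RKO in red, hollow points for set-apart libraries and bars for group means. The genotypes do not overlap for the 3 called genes, whereas for Drd2 the hollow points of both genotypes, from 171 to 350.4, lie above all filled ones, which end at 143.

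Over all 9 and 9 libraries, 5 genes did not overlap (0.0357% of genes tested), 4 of them higher (0.0286%) and 1 lower (0.00715%) in iMSN-D2RKO, the 3 above and Anxa3 and Clic6, named here after their values were seen. Anxa3, which encodes the calcium-dependent phospholipid-binding protein annexin A3, ran from 3.46 to 7.17 FPKM in WT (median 5.55) and from 7.62 to 14.5 in iMSN-D2RKO (median 8.79). Its log2 difference was 0.67 (adjusted p = 0.108). Clic6, which encodes a chloride intracellular channel protein and is abundant in choroid plexus, had 6.02 ± 0.788 and 8.48 ± 1.34 FPKM (SD, n = 9 each) and a log2 difference of 0.43 (adjusted p = 0.177).

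Taking the library score as a covariate raised the number of calls to 50 (0.357%), of which 32 (0.229%) were higher and 18 (0.129%) lower in iMSN-D2RKO. They included the 3 genes called without it. The score was computed from these same libraries, and the number of calls moved from 12 to 245 as single libraries were left out, with 12 to 50 of the 50 among them. It was 245 without iMSN-D2RKO ZT23 replicate 1, 89 without iMSN-D2RKO ZT19 replicate 1, 46 without iMSN-D2RKO ZT15 replicate 2 and at most 28 without any other single library. Weighting libraries by their spread instead gave 48 calls (0.343%), 28 of them shared (28 of 50 and 28 of 48). The score combined with a block by replicate number gave 7 calls, Ackr2, C920006O11Rik, Fst, Gpx6, Irak3, Sfn and Snx31. The other genes among the 50 lost their call there, although the replicate numbers did not pair the samples, as given below. Adjusted p-values named below as score-adjusted come from the covariate fit, and genes that it called and the comparison did not were named after their values were seen. They are given as values beside the comparison, in which they were not called.

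Among neuropeptide genes, Penk, the gene of preproenkephalin and the main transmitter marker of iMSNs (chr4:4133531-4138819), had 1454, 1047 and 1117 FPKM in WT at ZT15, 1758, 1599.8 and 1726 at ZT19, and 1613, 1442 and 1671 at ZT23. In iMSN-D2RKO it had 1632, 2625 and 1915 at ZT15, 2643, 2080.2 and 2042 at ZT19, and 2201, 3399 and 2358 at ZT23. Within each hour every iMSN-D2RKO library was above every WT library, as for 7 genes in all (0.05%, and 3 genes or 0.0214% in the other direction), and 8 of 9 were above all WT libraries of any hour. The means were 1492 ± 257 and 2322 ± 518 (SD, n = 9 each), a ratio of 1.56, with a log2 difference of 0.63 (limma, unadjusted p = 5.67e-05, adjusted p = 0.108). It passed the threshold in 4 of 38 fits of the level test, namely with the score (adjusted p = 0.0361, and 0.034 when the pseudocount was 0.1 as well), with library weights (0.00787) and after scaling to a common total (0.0479). It did not pass without the set-apart libraries (0.60, limma, adjusted p = 0.187), in the fit of all 66 libraries (0.34), with the replicate block (0.707), with the score and the block (0.228) or without any single library (0.116 to 0.275).

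Cartpt encodes the precursor of CART, a peptide of accumbens neurons first found as a transcript regulated by cocaine and amphetamine (chr13:99898489-99901091). In WT it had 19.3, 13.4 and 27.8 FPKM at ZT15, 4.59, 10.4 and 6.92 at ZT19, and 12.2, 6.03 and 8.45 at ZT23. In iMSN-D2RKO it had 62.6, 25.3 and 51.4 at ZT15, 11.5, 92.1 and 31.5 at ZT19, and 38.2, 104 and 65.6 at ZT23. The 7 libraries above all WT libraries excluded ZT15 replicate 2 and ZT19 replicate 1, which both stood apart. The means were 12.1 ± 7.38 and 53.6 ± 30.7 (SD, n = 9 each), a ratio of 4.42 and a log2 difference of 1.99 (limma, unadjusted p = 3.87e-05, adjusted p = 0.108). The score-adjusted difference was 2.06 (adjusted p = 0.0148), and Cartpt was called in 7 of the 38 fits. The difference was 1.13 at ZT15, 2.08 at ZT19 and 2.76 at ZT23, but the test of its dependence on the hour did not pass (unadjusted p = 0.18).

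Nts, the gene of neurotensin, had 10.2 ± 6.24 FPKM in WT and 24.6 ± 15.4 in iMSN-D2RKO (SD, n = 9 each). Its log2 difference of 1.21 had an adjusted p of 0.612, and its score-adjusted difference of 1.08 an adjusted p of 0.0361. Of the 17 accumbens neuropeptide genes tested, 4 were higher and 1 lower at an unadjusted p under 0.05 (2.37% and 2.13% of all genes were), with a median log2 difference of 0.10 against 0.01 over all genes. The counts with the score were also 4 and 1, against 8.93% and 7.13% of all genes, and these shares are the background of the lists that follow. The lists were chosen with earlier results of these data known, so such counts describe their members and give no independent support for a theme. The lower neuropeptide gene was Tac1, the substance P precursor of direct-pathway neurons, at 283 ± 22.7 FPKM in WT and 247 ± 41.0 in iMSN-D2RKO (log2 difference -0.21, unadjusted p = 0.049, adjusted p = 0.9996). Pdyn, the dynorphin precursor, had a log2 difference of 0.00, Sst, the somatostatin gene, 0.08 and Npy, the gene of neuropeptide Y, 0.09.

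**Figure D3:**
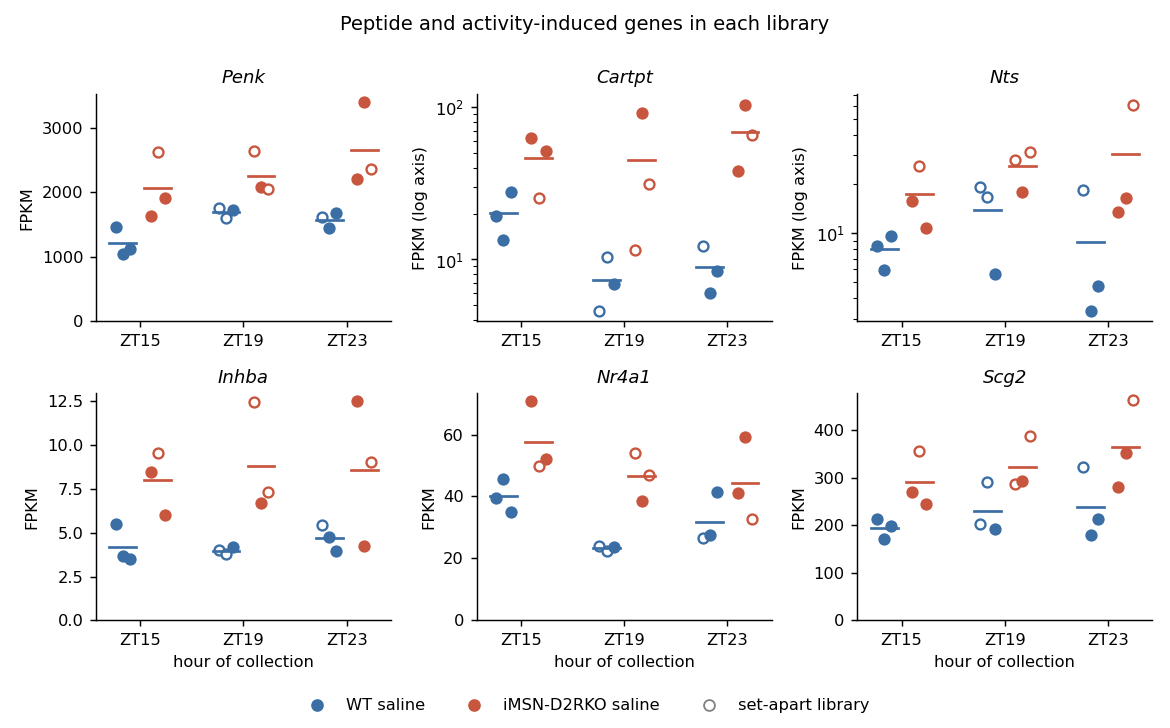
FPKM (y axis, log axes for Cartpt and Nts) of Penk, Cartpt, Nts, Inhba, Nr4a1 and Scg2 in each library by hour of collection (x axis), WT in blue, iMSN-D2RKO in red, hollow points for set-apart libraries and bars for group means. Penk is higher in iMSN-D2RKO at each hour without overlap, with 1632 to 3399 FPKM against 1047 to 1758, and the iMSN-D2RKO points of Cartpt inside the WT range are hollow.

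Promoters were read for the genes higher with the score because several peptide and activity genes are known targets of CREB, the transcription factor that cAMP signaling activates. RefSeq (GRCm38.p6, the build of the files) gave a promoter for 21 of the 32. The palindromic cAMP response element TGACGTCA, which reads the same on both strands, stood within the 250 bases before a start of 3 of the 21 (14.3%), against 331 of 10682 genes tested (3.10%) and 0 of 13 of the lower genes. The AP-1 element TGANTCA was in 3 of 21 (14.3%), Arhgef10l, Hspa5 and Nts, against 5.36% of all. The E-box CACGTG was in 1 (against 9.84%), and the sterol element TCACNCCAC and the NR4A element AAAGGTCA, searched on both strands, were in 0 (against 1.25% and 1.04%). These are matches of letters in a short window and no measure of binding. The genes were picked by the score fit of these same data, most of them without a call in the comparison. The elements were chosen with these genes in view, so the shares only describe them, and a part of cAMP signaling was not tested. The 3 stretches with the cAMP response element are Cartpt (chr13:99900684-99900933, - strand, element 112 bases before the start), Scg2 (chr1:79440027-79440276, - strand, 68 bases) and a start of the mitochondrial carrier gene Slc25a25 (chr2:32424067-32424316, - strand, 150 bases). The RefSeq start used for Cartpt lies inside the gene span given above, and so does its stretch. The 3 stretches are shown 5′ to 3′ to place the element, in capitals. The promoter of the called RNA C920006O11Rik (chr9:78175664-78175913, + strand), without the element, follows for comparison.
Cartpt: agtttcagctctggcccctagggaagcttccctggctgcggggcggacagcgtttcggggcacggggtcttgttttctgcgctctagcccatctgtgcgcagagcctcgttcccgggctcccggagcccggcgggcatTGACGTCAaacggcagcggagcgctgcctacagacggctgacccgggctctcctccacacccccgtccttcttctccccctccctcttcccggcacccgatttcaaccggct
Scg2: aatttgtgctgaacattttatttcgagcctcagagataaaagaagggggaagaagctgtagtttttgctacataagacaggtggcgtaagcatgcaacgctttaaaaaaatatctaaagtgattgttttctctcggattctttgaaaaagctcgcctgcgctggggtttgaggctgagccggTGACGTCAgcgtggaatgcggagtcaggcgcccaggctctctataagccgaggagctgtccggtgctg
Slc25a25: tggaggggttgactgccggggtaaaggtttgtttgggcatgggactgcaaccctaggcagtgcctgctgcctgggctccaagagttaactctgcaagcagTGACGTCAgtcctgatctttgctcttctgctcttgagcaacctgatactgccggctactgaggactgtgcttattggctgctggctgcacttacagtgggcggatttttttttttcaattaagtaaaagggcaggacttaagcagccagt
C920006O11Rik: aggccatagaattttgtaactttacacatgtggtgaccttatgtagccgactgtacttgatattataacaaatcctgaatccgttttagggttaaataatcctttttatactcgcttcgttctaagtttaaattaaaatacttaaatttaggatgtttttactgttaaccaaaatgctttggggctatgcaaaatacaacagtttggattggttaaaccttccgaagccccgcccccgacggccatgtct

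Of 24 plasticity genes that neuronal activity is known to induce, 7 were higher and 0 lower at an unadjusted p under 0.05 (2.37% and 2.13% of all genes), and 10 and 0 with the score (8.93% and 7.13%), with a median log2 difference of 0.12 against 0.01 over all genes. One of them, Fst, was called, against 0.0214% of all genes, and with the score 5 were (Fst, Inhba, Nptx2, Nr4a1 and Scg2), against 0.357%. Inhba, the activin A subunit (chr13:16011851-16031621), ran from 3.51 to 5.49 FPKM in WT (median 4.00) and from 4.25 to 12.5 in iMSN-D2RKO (median 8.47), with 8 of 9 libraries above all of WT. The means were 4.30 ± 0.746 and 8.48 ± 2.78 (SD, n = 9 each), a ratio of 1.97 and a log2 difference of 0.79 (limma, adjusted p = 0.175, score-adjusted p = 0.0361). Of 17 activin pathway genes tested, 2 were higher (Inhba and Fst) and 0 lower at an unadjusted p under 0.05, and 3 and 0 with the score, with a median of -0.01. Inhba and Fst are also counted among the 24 plasticity genes. The log2 difference was 0.05 for the subunit Inhbb, 0.29 for the receptor Acvr2a (unadjusted p = 0.112) and -0.10 for the receptor Acvr1b. Scg2, the gene of the dense-core vesicle protein secretogranin II, had 221 ± 51.4 and 326 ± 69.5 FPKM (log2 difference 0.56, adjusted p = 0.381, score-adjusted p = 0.0361).

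Of 20 immediate early genes tested, 5 were higher and 0 lower at an unadjusted p under 0.05, and 6 and 0 with the score (median log2 difference 0.12). They were Nr4a1, Nr4a3, Fosl2, Jun and Fos, genes of transcription factors that stimulation induces within minutes to hours. Nr4a1 ran from 22.5 to 45.8 FPKM in WT and from 32.9 to 70.8 in iMSN-D2RKO, with means of 31.8 ± 8.77 and 49.5 ± 11.5 (log2 difference 0.64, adjusted p = 0.177, score-adjusted p = 0.0361). Nr4a3 had 4.13 ± 1.58 and 8.23 ± 2.90 (0.84, adjusted p = 0.351, score-adjusted p = 0.0471). Among the most abundant early genes, Egr1 had a log2 difference of 0.18 (unadjusted p = 0.376), Junb 0.04 and Arc 0.12, each with overlapping ranges.

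Chaperones formed the list with the most genes on one side. Of 39 tested, 12 were higher and 0 lower at an unadjusted p under 0.05, against 2.37% and 2.13% of all genes, with a median log2 difference of 0.20, and none was called. With the score 27 were higher and 0 lower at that level, against 8.93% and 7.13% of all genes, and Hspa5 was called. Hspa5, the gene of the endoplasmic reticulum chaperone BiP, ran from 113 to 148 FPKM in WT and from 133 to 189 in iMSN-D2RKO (127 ± 12.1 and 164 ± 17.9, log2 difference 0.36, adjusted p = 0.243, score-adjusted p = 0.0361). Hspa8, the constitutive cytosolic HSP70, had 107 ± 72.8 and 229 ± 85.8 FPKM (log2 difference 1.25, adjusted p = 0.495), and in WT its 3 highest values (196, 198 and 215) were those of the set-apart libraries. Hsp90ab1, a cytosolic HSP90, had 892 ± 285 and 1069 ± 285 (0.28, unadjusted p = 0.109). The median of the list was 0.05 in dark cocaine libraries (-0.01 over all genes) and 0.17 in light saline libraries (0.02 over all genes), or 0.11 without iMSN-D2RKO ZT7 replicate 1, a light library with a high total FPKM.

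Of 37 genes of cAMP and protein kinase A signaling, 2 were higher and 0 lower at an unadjusted p under 0.05, and 4 and 4 with the score, with a median of -0.01. Gnas, the stimulatory G protein subunit, was one of the 2, at 638 ± 119 and 862 ± 154 FPKM (log2 difference 0.43, unadjusted p = 0.00135, adjusted p = 0.495). Adcy5, the main striatal adenylyl cyclase, had a log2 difference of -0.26 (unadjusted p = 0.182). Among 18 genes of striatal spiny neurons, 1 was higher (Penk) and 2 lower at that level, and 1 and 7 with the score, with a median of -0.18. Among 33 potassium channel genes 0 were higher and 4 lower, and 0 and 10 with the score, with a median of -0.10. Of 26 glutamate receptor genes, 0 were higher and 1 lower, and 0 and 7 with the score (median -0.09). Over all genes 2.13% were lower at that level, and 7.13% with the score, and no potassium channel or glutamate receptor gene was called in either fit.

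Of 22 genes of the core clock and its output tested, 1 was higher and 3 lower at an unadjusted p under 0.05, and 1 and 7 with the score, and the median was -0.06. Nfil3, a repressor of the clock output, was higher (log2 difference 0.36, adjusted p = 0.9996, score-adjusted p = 0.0358), whereas Ciart, a repressor within the clock (-0.51, adjusted p = 0.668), Per3 (-0.20) and Tef (-0.23) were lower. Per1, Per2 and Arntl, the gene of BMAL1, had -0.08, -0.18 and 0.21, with unadjusted p-values of 0.406, 0.225 and 0.171.

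**Figure D4:**
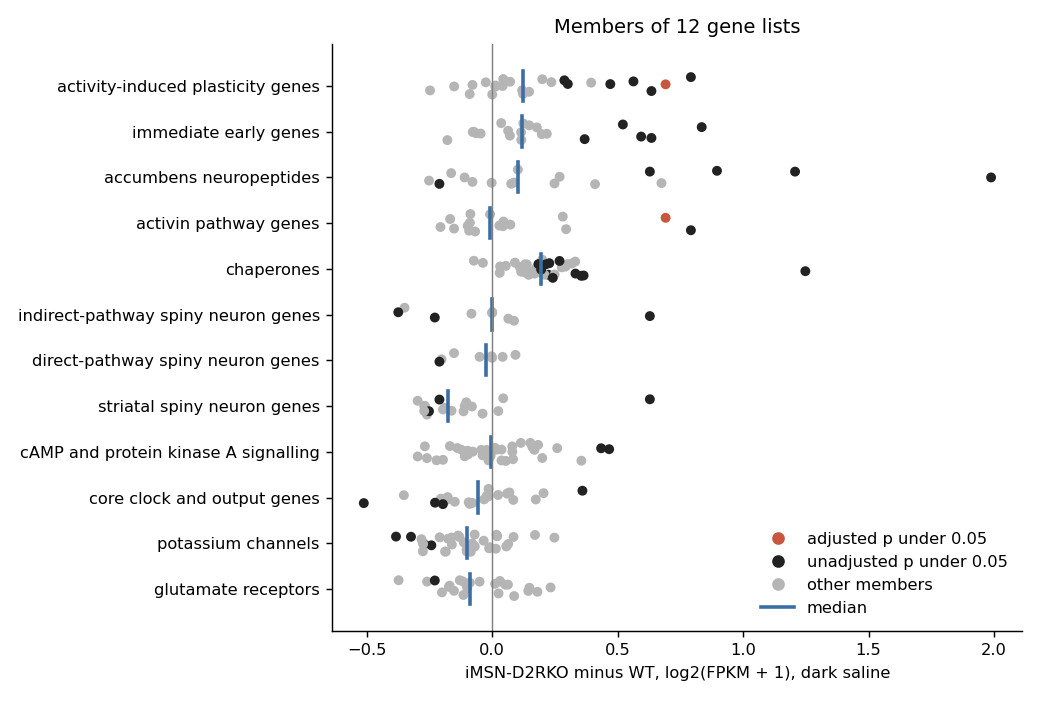
Log2 difference of iMSN-D2RKO minus WT in dark saline on log2(FPKM + 1) (x axis) for each tested member of 12 gene lists (y axis), black for an unadjusted p under 0.05, red for an adjusted p under 0.05, grey for other members and a blue line for each list's median. The 12 marked chaperones and the 7 marked activity-induced genes lie above 0, and the 4 marked potassium channels below it.

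Among the lower genes, Ackr2, which encodes an atypical receptor that scavenges inflammatory chemokines (chr9:121898355-121911074), ran from 3.07 to 5.52 FPKM in WT (median 3.29) and from 0.862 to 3.39 in iMSN-D2RKO (median 1.78), and the highest iMSN-D2RKO value was that of the set-apart ZT15 replicate 2. Its log2 difference of -0.74 did not pass the threshold (adjusted p = 0.0952), and it was called with the score (-0.78, adjusted p = 0.000261), without the set-apart libraries (adjusted p = 0.0409) and with scaling by median ratios, in 9 of the 38 fits in all. Gpx6, a glutathione peroxidase gene, had 4.79 ± 2.14 and 1.45 ± 0.962 FPKM (log2 difference -1.24, adjusted p = 0.274, score-adjusted p = 0.0434). Cntnap1, the gene of the axonal paranode protein Caspr, had 70.9 ± 7.79 and 53.0 ± 7.39 (-0.42, adjusted p = 0.270, score-adjusted p = 0.0432). Ackr2, Gpx6 and Cntnap1 were named after their values were seen.

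No gene was called as differing between the genotypes in an hour-dependent way. The interaction of genotype and hour gave 0 calls among 13994 genes, with 249 (1.78%) at an unadjusted p under 0.05. Taken alone, ZT15, ZT19 and ZT23 also gave 0 calls each, with 558 (3.99%), 206 (1.47%) and 335 (2.39%) genes at an unadjusted p under 0.05. In simulated data on these 13994 genes, 76.5% of 200 interactions of 2 on the log2 scale were found, and for the level over all hours 37.5% of changes of 0.5 and 91% of changes of 1. The simulated noise was independent between genes, without the shared axis of the libraries. The changed genes were drawn from those with a mean log2(FPKM + 1) above 1, so these shares need not hold for the data. Snx31 had the smallest p at ZT15 (0.80, adjusted p = 0.12) and at ZT23 (0.66, adjusted p = 0.918).

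Libraries that the comparison did not use gave the same genes a second reading. The dark hours after cocaine (9 and 9 libraries, 20 mg/kg at ZT3) called 6 of 14245 genes (0.0421%, with 302 or 2.12% at an unadjusted p under 0.05), all higher in iMSN-D2RKO: Fst, Snx31, Anxa3, Inhba, Pdlim3, the gene of a muscle-type PDZ and LIM domain protein, and Rln3, the gene of the peptide relaxin-3. The light hours ZT7 and ZT11 after saline (6 and 6 libraries) called 0 of 13880, with 778 (5.61%) at an unadjusted p under 0.05. One light library, iMSN-D2RKO ZT7 replicate 1, had a total of 690048 FPKM, against 371897 to 410697 in the other 11, and light values are given with it unless said otherwise. Without it, a choice made after the data were seen, the light hours called 5 genes, of which Snx31, Shisa8 and Nptx2 were higher and C920006O11Rik and Otof lower in iMSN-D2RKO. All 3 genes called in dark saline had the same direction with an unadjusted p under 0.05 in both sets, as against 1.68% of all genes in dark cocaine and 3.79% in light saline. Of the 50 score-adjusted genes, 47 had the same direction in dark cocaine and 16 also an unadjusted p under 0.05, and in light saline 41 of 49 and 16 did. Over all genes the same direction was seen for 55.7% and 64.5%. None of the 50 had the opposite direction with an unadjusted p under 0.05 in either set. Over all genes 2.17% in dark cocaine and 5.61% in light saline reached that level in either direction, 1.68% and 3.79% in the same. Opposite ones were thus few among all genes too. Without the light library of high total, 40 of 49 score-adjusted genes had the same direction and 17 also an unadjusted p under 0.05 (5.55% of all genes).

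Fst had a log2 difference of 0.87 after cocaine (adjusted p = 0.00997), with WT from 1.62 to 2.89 and iMSN-D2RKO from 2.58 to 5.84 FPKM, and 0.61 in the light (unadjusted p = 0.000817, adjusted p = 0.464, and 0.67 with an adjusted p of 0.271 without the library of high total). Snx31 had 0.77 after cocaine (adjusted p = 0.0146) and 0.95 in the light (adjusted p = 0.0673), where WT ran from 0.0934 to 0.225 and iMSN-D2RKO from 0.839 to 2.17 FPKM. C920006O11Rik had -0.64 after cocaine (adjusted p = 0.218) and -0.59 in the light (adjusted p = 0.322), where WT ran from 1.91 to 2.80 and iMSN-D2RKO from 0.716 to 1.71 FPKM. The groups stayed apart in the light for Snx31 and the noncoding RNA and overlapped for Fst, for which the library of high total was the overlapping one (2.26 FPKM, against 2.90 to 4.22 in the other 5 and 1.24 to 2.50 in WT). Without that library Snx31 had 0.84 (limma, adjusted p = 0.0139) and C920006O11Rik -0.66 (adjusted p = 0.0324). How many of all genes stayed apart in the light was not counted.

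Among the genes named above without a call, Anxa3 had 0.84 after cocaine (adjusted p = 0.000281, 5.31 to 7.65 against 10.1 to 15.1 FPKM), and Inhba 1.24 (adjusted p = 0.0258, 0.819 to 7.35 against 8.82 to 11.6). Penk had 0.75 after cocaine (adjusted p = 0.513) and 1.03 in the light (unadjusted p = 0.0169), where the library of high total had 9282 FPKM. Without that library the light difference of Penk was 0.65 (unadjusted p = 0.00105, adjusted p = 0.329), with 1561 to 2384 FPKM against 969 to 1486 in WT. Cartpt had 1.73 after cocaine (unadjusted p = 0.00105, adjusted p = 0.927) and 0.49 in the light (unadjusted p = 0.189), and its dark minus light difference of 1.49 did not pass (unadjusted p = 0.0105, adjusted p = 0.997). Without the library of high total these were 0.30 (unadjusted p = 0.386) and 1.70 (unadjusted p = 0.00513, adjusted p = 1.0). Nr4a1 had 0.11 after cocaine and 1.11 in the light (unadjusted p = 5.61e-05, adjusted p = 0.168). Drd1, the D1 receptor, had 0.67 after cocaine (unadjusted p = 5.55e-05, adjusted p = 0.0988), and Drd2 -0.34 after cocaine and 0.21 in the light, or -0.08 without the library of high total, in which it had 375 FPKM. Tests of the differences themselves called 0 of 14244 genes for dark against light (434 or 3.05% at an unadjusted p under 0.05) and 0 of 14438 for saline against cocaine (242 or 1.68%), and the former was also 0 without the library of high total.

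**Figure D5:**
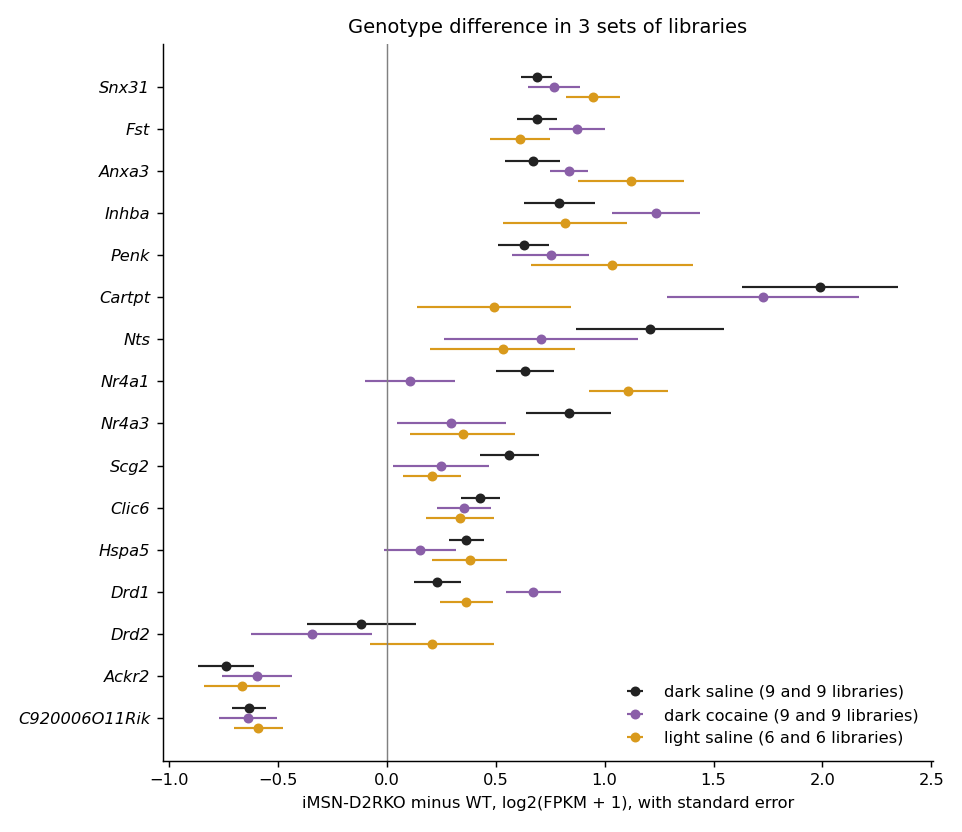
Log2 difference of iMSN-D2RKO minus WT with its standard error (x axis, log2(FPKM + 1)) for 16 genes (y axis) in dark saline, dark cocaine and light saline libraries, the light library of high total included. Fst, Snx31, Anxa3 and Inhba are above 0 in all 3 sets and C920006O11Rik and Ackr2 below, with -0.63, -0.64 and -0.59 for C920006O11Rik, and Drd2 lies on both sides, its light value of 0.21 being -0.08 without that library.

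Markers of cell classes and regions were summed per library. The 9 genes of indirect-pathway neurons summed to 1838 ± 253 FPKM in WT and 2625 ± 534 in iMSN-D2RKO (SD, n = 9 each), 1.43-fold higher (exact permutation test within hours, two-sided, p = 0.00025, the smallest these exchanges can give, adjusted p = 0.0055 over 22 such tests). Penk was the most abundant of them and held most of the sum. Its mean rose by more FPKM than the sum did, so the other members together were lower, and Penk itself was not called (limma, adjusted p = 0.108). The list's median log2 difference was 0.00, with 1 member higher and 2 lower at an unadjusted p under 0.05, and 1 and 3 with the score. The 8 direct-pathway genes summed to 459 ± 36.4 and 416 ± 39.7 (exact permutation p = 0.0443, adjusted p = 0.195). Tac1, the most abundant of them (mean 264.9 FPKM), held most of this sum, and the list's median log2 difference was -0.03. At an unadjusted p under 0.05, 0 members were higher and 1 was lower. Drd1 was not in this list and was 0.23 higher (limma, unadjusted p = 0.0454).

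The 10 genes typical of the NAcc within the striatum summed to 562 ± 150.3 and 749 ± 222 (exact permutation p = 0.0393, adjusted p = 0.195) and the 5 genes typical of the dorsal striatum to 1188 ± 294 and 886 ± 217 (p = 0.0348 by the same exact test, adjusted p = 0.195). The NAcc list holds Cartpt and Nts, and its median log2 difference was 0.49 in dark saline, 0.20 in dark cocaine and -0.41 in light saline (-0.38 without the library of high total). That of the dorsal striatum list was -0.21 in dark saline, 0.105 in dark cocaine and 0.22 in light saline (0.20 without that library). Hpca, the most abundant gene of the dorsal striatum list (mean 865.3 FPKM), held most of its sum. The log2 difference of Hpca was -0.47 in dark saline (limma, unadjusted p = 0.052). Crym, an accumbens-enriched gene of the NAcc list, had 0.16 (unadjusted p = 0.625). The part of punch position in these results was not tested. Astrocyte genes summed to 2884 ± 359 and 3330 ± 489 (exact permutation p = 0.023, adjusted p = 0.195). Apoe, the most abundant of them (mean 2202 FPKM), held most of this sum, with a log2 difference of 0.27 (limma, unadjusted p = 0.0229). The median of the 14 astrocyte genes was 0.02, with 2 higher and 0 lower at an unadjusted p under 0.05. Oligodendrocyte genes summed to 3725 ± 637 and 3189 ± 736 (p = 0.117 by the same exact test), with a median log2 difference of -0.245 over 17 genes. Of these, 0 were higher and 2 lower at that level (2.37% and 2.13% of all genes), and 0 and 4 with the score (8.93% and 7.13%). None was called, against 0.0214% of all genes, and Mbp, the myelin basic protein gene, had -0.29.

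Genes of the thalamus and hypothalamus were uneven across libraries. They summed to 192 and 209 FPKM in iMSN-D2RKO ZT15 replicates 1 and 3, against 33.1 to 41.1 in WT at ZT15, and to 192 and 140.4 in WT ZT19 replicates 1 and 2, and lay between 20.9 and 77.1 in the other 14 libraries. The means of 60.9 ± 61.4 and 78.8 ± 71.5 did not differ beyond this spread (exact permutation p = 0.549), none of the 10 genes tested reached an unadjusted p under 0.05, and the median log2 difference was 0.25. Prkcd, a protein kinase C gene of thalamic neurons, was the most abundant of them, at 60.8 to 109 FPKM in these 4 libraries and at most 11.7 in the others. Fst, Snx31 and C920006O11Rik were called when any single one of these 4 libraries was left out. The 4 were not left out together, and the part of neighbouring tissue in the results was not tested.

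Choroid plexus and ependymal genes were high in a pair of libraries. Their sum was 262 in iMSN-D2RKO ZT15 replicate 1 and 516 in ZT19 replicate 1, against 11.3 to 39.1 in the other 16, almost all of it Ttr, the transthyretin gene (232 and 474 FPKM), which did not exceed 8.53 in any other library. Folr1, a folate receptor gene of choroid plexus, had a median of 0.0493 FPKM in WT and 0.0837 in iMSN-D2RKO, whereas Clic6 and Foxj1 had several FPKM in both. The mean sums of 19.7 ± 8.92 and 102 ± 175 did not differ beyond this spread (exact permutation p = 0.248). Clic6 and Kl belong to this list and were the 2 of its 9 genes with an unadjusted p under 0.05, and the part of choroid plexus RNA in the results was not tested. Male-specific genes were present in all libraries.

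Genes around both receptor genes were read as well. Within 2 Mb of Drd2, 32 genes were tested, 0 were called, 0 were higher and 1 was lower at an unadjusted p under 0.05 (Nxpe4, log2 difference -0.28, unadjusted p = 0.0116). Within 2 Mb of Drd1, 44 genes were tested and 0 called, with 5 higher and 1 lower at that level, against 2.37% and 2.13% of all genes, and 1 of the 44, Nfil3, was called with the score, against 0.357%. Drd1 itself is counted among the 44 and among the 5 higher ones. The 50 score-adjusted genes lay on chromosome 4 in 9 cases (18%, against 6.27% of genes tested) and on chromosome 13, which also holds Drd1, in 7 (14.0%, against 3.71%), including Fst, Inhba and Cartpt. Fst, Inhba and Cartpt lie outside the 2 Mb around Drd1. Chromosome 9, with Drd2, held 3 of the 50 (6.0%, against 5.59% of genes tested), C920006O11Rik, Ackr2 and Hcrtr2, the orexin receptor gene.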

How the data were processed

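The labels assigned each library its genotype, treatment and hour, and the WT and iMSN-D2RKO saline libraries of ZT15, ZT19 and ZT23 were compared. Libraries of poly(A) RNA with strand information were read from one end, and the authors aligned the reads to mm10 with TopHat and Bowtie2 before Cufflinks and Cuffnorm gave the FPKM of each gene. CASAVA 1.8.2 is named in the submitters' processing notes. The deposited FPKM are not counts, so no count test was run and read depth is unknown. The table holds 24138 entries in 72 columns, of which 6 repeat another column with identical values, and 355 entries join several genes. Columns of no sample numbered 0.

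Genes that reached 1 FPKM in any of the 18 libraries were tested in R 4.3.3 with limma 3.58.1 on values of log2(FPKM + 1), with the hour as a factor, empirical Bayes moderation with a trend and Benjamini-Hochberg adjustment over all genes tested. The interaction was an F test, single hours were contrasts of 6 group means, and the other sets of libraries were fitted alike. The library score used 9584 genes with a mean above 5 FPKM. Single values per library were compared by an exact permutation test over the 8000 exchanges of genotype within hours (Python 3.11.15, numpy 2.4.6, pandas 2.3.3, scipy 1.17.1), with 22 tests in the family. The fits were tested on simulated data, in which 6 unchanged genes were called beside the changes of 0.5, and 10 beside those of 1 and beside the interactions.

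Genes named are Drd1, Drd2 and Drd3, all genes called, genes within 2 Mb of Drd2 or Drd1, and called or most abundant members of the lists. Others are said to be named after their values were seen, as is the case for members of lists that are not among the 4 most abundant. The members and lists were chosen with earlier results of these data known. Alternatives covered pseudocount, filter, scaling, library score, library weights, hours, blocks and single libraries. Fits that combined the score with another choice, the score with single libraries left out, and light saline with single libraries left out, were added after the data were seen. Promoters are those of RefSeq on GRCm38.p6, and gene positions are GENCODE's on GRCm38, which is mm10. Of 42 promoter entries of the genes shown, 39 ran into a transcript of the gene in its direction.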

Additional observations from a re-analysis of the deposited data

How the results depend on the processing

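The 3 calls of the dark saline comparison became 50 with the library score as a covariate, 48 with library weights, 9 in a fit of all 66 libraries, 8 without the set-apart libraries, 1 without ZT19 and 0 without ZT15. With the score they were 130 without the set-apart libraries, and 50 with a pseudocount of 0.1. Leaving out single libraries gave 3 to 5 calls, and 12 to 245 with the score. The number was 5 without iMSN-D2RKO ZT15 replicate 2, ZT19 replicate 1 or ZT23 replicate 2, or WT ZT23 replicate 1 or 2, and Fst, Snx31 and C920006O11Rik were among them each time. Both other scalings gave 4 calls, adding Ackr2 with median ratios and Penk with a common total. Among genes at an unadjusted p under 0.05, 52.7% were higher in iMSN-D2RKO as deposited, 49.2% with median ratios and 40.3% with a common total. The other settings of the level test (pseudocount, filters, trend, robust moderation, without ZT23, removal of outliers by Dixon's test) gave 2 to 4 calls, the 4 without ZT23 being C920006O11Rik, Gm10012, Hmgn2 and Snx31. The interaction gave 4 calls with no filter on low values, all of genes under 1 FPKM on average, and 0 to 4 as single libraries were left out, with 4 without WT ZT19 replicate 3 and 2 without WT ZT23 replicate 3. Fitted on their own 6 libraries, ZT15 gave 1 call (Hspa8) and ZT19 1 (Hmgn2), and with the score ZT19 and ZT23 gave 1 each (Ackr2). Light saline gave 6 calls with the score, and 0 to 5 as single libraries were left out, with 5 without iMSN-D2RKO ZT7 replicate 1 and 1 without iMSN-D2RKO ZT11 replicate 2. Beside its 6 calls without the score, dark cocaine with the score called Shisa8 (1.03, limma, adjusted p = 6.55e-05), Syt10 and Pde1c. The log2 difference of Drd2 ran from -0.252 to 0.0289 as single libraries were left out, above 0 only without iMSN-D2RKO ZT19 replicate 2. That of Drd3 ran from -0.147 to 0.0276, above 0 without iMSN-D2RKO ZT23 replicate 2 or WT ZT15 replicate 3 (0.0174), and was 0.186 without ZT15. The causes of these changes were not tested. Depth is unknown for FPKM, and genes near 1 FPKM have few reads behind them.

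The replicate block left the 3 calls as they were, with 421 genes at an unadjusted p under 0.05, and 7 calls when combined with the score. The replicate numbers did not pair the samples: libraries with the same number deviated from their group means with correlations from -0.709 to 0.609, 6 of 9 below 0.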

Other observations

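Further genes called with the library score as a covariate and not in the comparison itself, chosen after their values were seen, fall outside the lists above. Sfn, the gene of the 14-3-3 protein sigma, had 0.927 ± 0.486 FPKM in WT and 2.88 ± 1.67 in iMSN-D2RKO (SD, n = 9 each), a log2 difference of 0.93 (limma, adjusted p = 0.447, score-adjusted p = 0.00483). Irak3, which encodes an inhibitor of Toll-like receptor signaling, had 1.04 ± 0.379 and 2.16 ± 0.916 (0.61, adjusted p = 0.381, score-adjusted p = 0.00378). Shisa8, the gene of an auxiliary protein of AMPA receptors, had 4.02 ± 1.33 and 8.13 ± 4.74 (0.79, adjusted p = 0.612, score-adjusted p = 0.0148), with differences of 1.13 after cocaine (adjusted p = 0.0534) and 1.01 in the light (unadjusted p = 0.000137), or 0.85 (adjusted p = 0.0453) without iMSN-D2RKO ZT7 replicate 1. Hcrtr2, which encodes an orexin receptor, had 0.723 ± 0.284 and 1.92 ± 1.02 (0.69, adjusted p = 0.566, score-adjusted p = 0.0341).

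Hmgn2, the gene of a nucleosome-binding protein, had separate low and high values rather than a shift. Its FPKM was under 0.4 in 6 of 9 WT libraries and from 8.50 to 16.0 in the other 3, while the 9 iMSN-D2RKO libraries had a median of 18.9 and a highest value of 25.5, with none under 8.50 (log2 difference 2.78, limma, adjusted p = 0.108). After cocaine the difference was 1.51 (adjusted p = 1.0) and in the light -0.71 (unadjusted p = 0.253), or -0.11 without iMSN-D2RKO ZT7 replicate 1, which had 0.346 FPKM. Many genomic copies resemble Hmgn2, so its FPKM is uncertain where reads match several of them.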
